A study of Mus musculus with 4 samples.

Results

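The endothelial genes of leukocyte adhesion and inflammation described here are *Icam1*, *Icam2*, *Vcam1*, *Sele*, *Selp*, *Ackr1*, *Lrg1*, *Lcn2*, *Ptgs2* and *Il1r1*. They were chosen by symbol, and all 10 of 10 matched a gene among the 32286 genes of the count matrices. *Vcam1*, *Icam1*, *Ackr1*, *Lrg1*, *Lcn2*, *Ptgs2* and *Il1r1* were highest in venous endothelium of the brain, in *Angpt2*-WT and *Angpt2*-KO mice alike. No member was called between the genotypes there. In capillary endothelium of *Angpt2*-KO mice *Lcn2* was higher and *Vcam1* lower, and in cells with *Apln* transcripts most members were lower. The capillary differences were not called without the cells of an angiogenic cluster. The cells with *Apln* came from different clusters in the genotypes, and WT mice had few of them.

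The study sequenced single cells of microvascular fragments, captured from the cerebrum with beads against PECAM1, from 2 *Angpt2*+/+ mice (WT1, WT2) and 2 *Angpt2*-/- mice (KO1, KO2). Each mouse gave 1 library of 10x Genomics 3′ chemistry, and all 4 mice were 3 months old. The first mouse of each genotype was female and the second male, so sex was balanced between the genotypes. The knockout allele came from floxed *Angpt2* mice crossed with a *Pgk*-Cre line, which deletes a coding exon in all cells, on a C57BL6/J background. The controls were WT littermates, and no group received a treatment.

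Leukocytes leave the blood mainly through small veins. P-selectin and E-selectin (*Selp*, *Sele*) let them roll along the vessel wall, ICAM1 and VCAM1 hold them through integrins, and the scavenger receptor ACKR1 carries chemokines across venular endothelium without signalling itself. IL-1 acting on its receptor IL1R1 induces these molecules through NF-kappaB, together with prostaglandin synthase 2 (*Ptgs2*), while *Lrg1* and *Lcn2* encode secreted acute-phase proteins that respond to STAT3 and NF-kappaB signalling.

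The stretches of 250 bases before the start of *Ackr1*, *Lrg1*, *Icam1* and *Sele* are given because these genes were higher in venous than in capillary endothelium, *Sele* from few UMIs, and because the latter pair holds the motif TTCNNNGAA, the palindrome that STAT factors recognise, in capitals. They were chosen after the values were seen, and are written 5′ to 3′ along each gene's own strand from RefSeq on GRCm38.p6. The start is that of RefSeq, and can differ from the GENCODE M21 gene positions given below. Most of the *Ackr1* stretch and part of the *Lrg1* stretch lie inside those gene positions. The *Icam1* stretch ends short of its gene position. The *Ackr1* stretch is chr1:173333504-173333753, minus strand, the *Lrg1* stretch chr17:56121947-56122196, minus strand, the *Icam1* stretch chr9:21015690-21015939, plus strand and the *Sele* stretch chr1:164047984-164048233, plus strand.
Ackr1: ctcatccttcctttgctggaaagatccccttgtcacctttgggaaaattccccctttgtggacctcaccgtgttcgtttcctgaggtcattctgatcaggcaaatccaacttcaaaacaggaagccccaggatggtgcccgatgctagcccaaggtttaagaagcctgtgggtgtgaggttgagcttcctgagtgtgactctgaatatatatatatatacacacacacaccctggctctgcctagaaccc
Lrg1: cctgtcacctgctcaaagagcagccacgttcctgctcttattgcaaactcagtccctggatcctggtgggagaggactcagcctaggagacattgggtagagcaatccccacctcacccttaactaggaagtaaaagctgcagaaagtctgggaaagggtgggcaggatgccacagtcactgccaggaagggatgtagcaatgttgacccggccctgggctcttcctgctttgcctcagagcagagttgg
Icam1: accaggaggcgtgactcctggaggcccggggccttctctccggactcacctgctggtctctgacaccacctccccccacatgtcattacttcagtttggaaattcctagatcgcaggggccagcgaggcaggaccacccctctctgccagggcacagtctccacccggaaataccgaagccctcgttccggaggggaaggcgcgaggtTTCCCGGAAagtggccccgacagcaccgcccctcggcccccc
Sele: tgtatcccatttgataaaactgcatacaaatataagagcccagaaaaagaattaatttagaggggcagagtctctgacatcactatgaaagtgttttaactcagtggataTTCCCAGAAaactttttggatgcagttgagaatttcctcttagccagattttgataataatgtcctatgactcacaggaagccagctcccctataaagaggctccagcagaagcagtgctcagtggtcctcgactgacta
The motif began 42 bases before the RefSeq start of *Icam1* and 140 bases before that of *Sele*. It occurs in 2306 of 32851 stretches of this length (7.02%). A consensus for NF-kappaB, searched on both strands, occurs in 1281 of them (3.9%) and, among the members with an entry, only before the second start of *Il1r1*. *Vcam1* and *Icam2* had no entry. A match is a description of letters, and its absence says only that they are not in this window.

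After cells with 500 genes or fewer or with 10% or more mitochondrial UMIs were left out, 17999 cells remained, 2900 to 5742 per library with 31753395 to 42903731 UMIs. Of these, 14962 were endothelial. Clusters of them were named from fixed marker lists that hold none of the 10 genes and are called arterial-like, capillary-like, venous-like and fenestrated-like, or arterial, capillary, venous and fenestrated for short. *Apln*-positive cells are cells of the first 3 kinds or of an unnamed cluster with at least 1 UMI of *Apln*, the gene of a peptide made by sprouting endothelium, and were kept apart from the zones. The groups held 2700 arterial, 7304 capillary, 656 venous, 802 *Apln*-positive and 811 fenestrated cells. A further 2689 cells formed a cluster that stayed unnamed, since its best score was venous while its 10 leading genes held 1 marker of another zone and 0 of the venous list. Summed venous markers stood at 4507 to 6434 CPM (UMIs of a gene scaled to a common total, as parts in 1e6 of all UMIs of the group) in the venous group and at 1185 to 1837 CPM in the capillary group, and the fenestrated and arterial lists separated their groups likewise. The capillary list overlapped over the mice, at 13150 to 17410 CPM in capillary and 9762 to 14340 CPM in arterial cells, though it was higher in capillary cells of each mouse. Venous markers in *Apln*-positive cells, at 2137 to 5313 CPM, overlapped the venous range. *Angpt2* transcripts were at 14.1, 13.1, 61.8 and 39.7 CPM in all endothelial cells of WT1, WT2, KO1 and KO2, higher in the *Angpt2*-KO libraries. A 3′ assay reads outside the deleted exon, so this level checks nothing about the genotype, which was taken from the labels. Comparisons of genotypes set 2 mice against 2 mice, and those of cell groups were made within all 4 mice. Kept cells of different libraries shared 33 barcodes, and no doublet caller was run.

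The first question was where along the vessel tree the genes were expressed. In each of the 4 mice, *Vcam1*, *Icam1*, *Ackr1*, *Lrg1*, *Lcn2*, *Ptgs2* and *Il1r1* were highest in the venous group of all endothelial groups. Against capillary endothelium, *Ackr1* and *Lrg1* rose most, by over 7 on the log2 scale, *Ptgs2* and *Vcam1* by over 5, and *Lcn2*, *Il1r1* and *Icam1* by 3.82, 3.56 and 2.73. *Icam2*, which is present on resting endothelium, had levels of 160 to 320 CPM, and its ranges overlapped between all neighbouring groups. Of the 9 members tested, 8 were called higher by edgeR in sums per mouse, where 11.6% of all 10281 genes were called higher and 25.3% in either direction. The members took no part in the clustering, but the clusters were built from other genes of the same cells. *Sele*, *Ackr1* and *Lrg1* passed the filter on low counts through their venous counts, so their calls add nothing to that number.

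**Figure D1:**
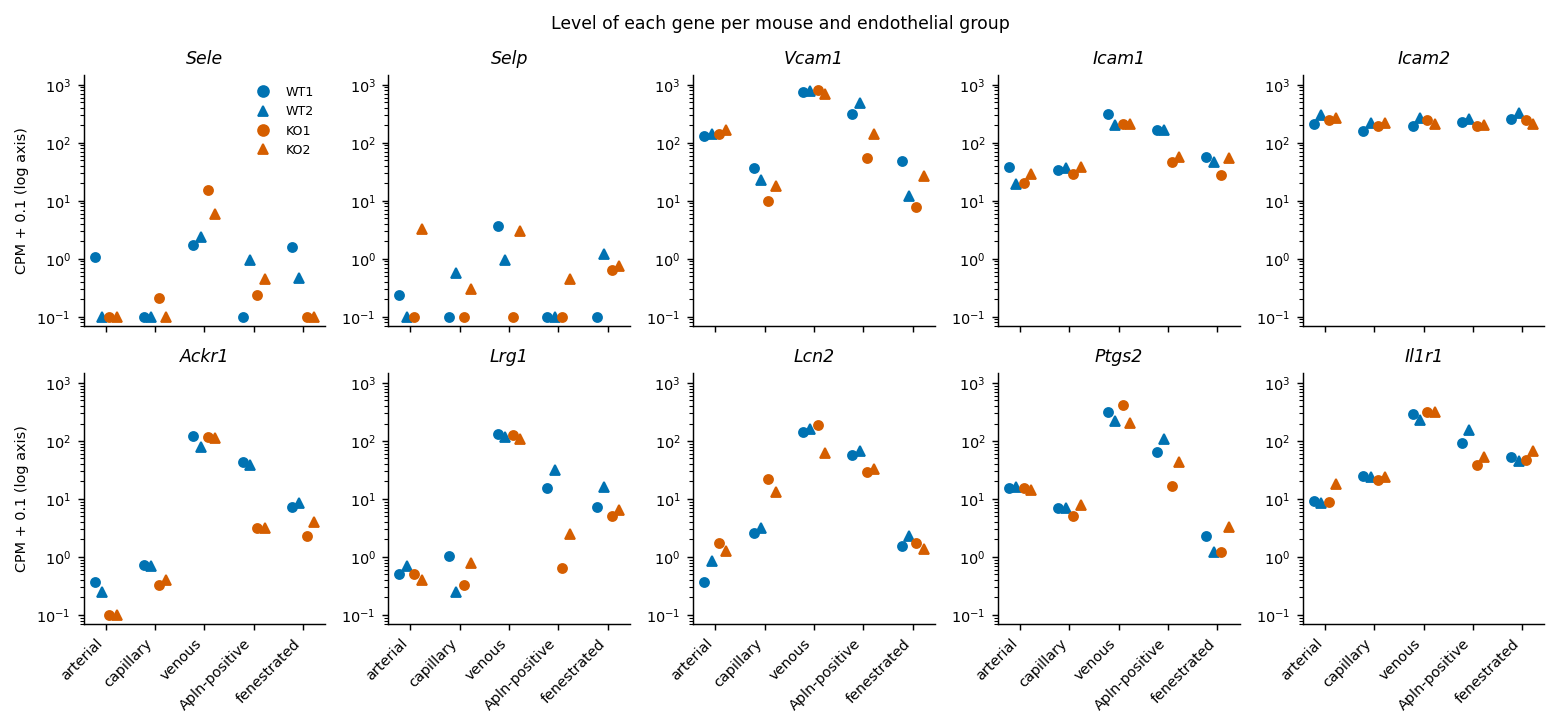
Level of each of the 10 genes in CPM + 0.1 (log axis) in 5 endothelial groups, 1 point per mouse (blue WT, orange KO; circles mouse 1, triangles mouse 2). The venous points of *Vcam1*, *Ackr1*, *Lrg1*, *Ptgs2* and *Il1r1* lie above those of every other group, and *Icam2* stays between 160 and 320 CPM.

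The selectins were rare. *Sele* (chr1:164048234-164057677, plus strand of GRCm38) was at 1.61 and 2.26 CPM in venous cells of WT1 and WT2 and at 15.2 and 5.77 CPM in those of KO1 and KO2. Both *Angpt2*-KO values lay above both WT values, but they rest on 10 and 8 UMIs in 2 and 3 cells. Over all mice 39 UMIs were venous and 1 was capillary, a ratio of levels of 102 with an exact 95% interval of 17.2 to 4120. Such intervals, here and below, cover counting error only. *Selp* (chr1:164115264-164150026, plus strand), stored in endothelial granules, had 11, 6, 0 and 4 venous UMIs in WT1, WT2, KO1 and KO2. The 0 of 35 cells in KO1 allows a share of up to 8.57%. Its venous level was 11 times the capillary level, with an interval of 4.02 to 37.2 from 21 and 5 UMIs. Outside the endothelial groups, a cluster named from choroid epithelium markers had 21 *Sele* UMIs in 20 cells and 11 *Selp* UMIs in 10 cells. All of these were from KO2, and they are not part of the ratios.

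Of the integrin ligands, *Vcam1* (chr3:116109949-116129688, minus strand) had venous levels of 749, 773, 812 and 681 CPM in WT1, WT2, KO1 and KO2. Its capillary levels were 36.2, 22.7, 9.61 and 17.7 CPM, and the groups did not overlap (log2 fold change 5.18, SE 0.234, edgeR adjusted p = 4.23e-10). It was also higher in arterial endothelium than in capillaries, at 130, 141, 143 and 166 CPM (log2 fold change 2.77, SE 0.216, edgeR adjusted p = 1.98e-06). *Icam1* (chr9:21015985-21028817, plus strand, 7 exons) stood at 313, 206, 212 and 211 CPM in the venous cells of WT1, WT2, KO1 and KO2. WT1 was the highest and the others were alike. Its capillary levels ran from 28.6 to 37.3 CPM and its arterial levels from 19.2 to 38.1 CPM, so these groups overlapped. The arterial fall by 0.4 on the log2 scale (SE 0.137, edgeR adjusted p = 0.0464) was lost without WT2, KO1 or KO2 in turn. *Icam2* (chr11:106377656-106388075, minus strand) was not called between venous and capillary endothelium (log2 fold change 0.14, SE 0.103, edgeR adjusted p = 0.34).

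The unnamed cluster lay between the zones for some members and not for others. It held *Icam1* at 87.9 to 181 CPM and *Vcam1* at 148 to 270 CPM, both between the capillary and the venous range. *Ackr1* and *Lrg1* stayed at no more than 1.44 and 0.735 CPM there. No test was run for this cluster.

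*Ackr1* (chr1:173331886-173333750, minus strand), which overlaps *Cadm3* on the same strand, so that reads of the pair could be split, was at 123, 79.3, 118 and 110 CPM in the venous cells of WT1, WT2, KO1 and KO2. In capillary cells it had 4, 4, 2 and 3 UMIs, under 1 CPM in each mouse (log2 fold change 7.91, SE 0.207, edgeR adjusted p = 1.003e-12). It was found in 38.9, 38.4, 34.3 and 31.2% of venous cells, and in 0.962, 1.23, 0 and 0% of microglia, which should lack it. *Lrg1* (chr17:56119678-56122001, minus strand), whose product promotes angiogenic TGF-beta signalling, followed the same pattern at 130, 115, 126 and 108 venous CPM (log2 fold change 7.77, SE 0.224, edgeR adjusted p = 2.78e-12). The venous group, 4.38% of endothelial cells, held 83 to 92.9% of all endothelial *Lrg1* UMIs and 70.3 to 87.6% of those of *Ackr1* in each mouse. These shares leave out 127 *Lrg1* and 156 *Ackr1* UMIs of KO2 in the cluster named from choroid epithelium markers. In fenestrated endothelium both were at 2.2 to 16.1 CPM, above the capillary level in every mouse, and *Lrg1* was called higher there (log2 fold change 3.996, SE 0.496, edgeR adjusted p = 2.52e-05). In that comparison *Lrg1* passed the filter on low counts through its fenestrated counts.

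*Lcn2* (chr2:32384633-32388252, minus strand), an iron-siderophore binding protein, was at 143, 158, 187 and 62.8 CPM in venous cells of WT1, WT2, KO1 and KO2. The KO2 value was the lowest, and all 4 lay above the capillary values (log2 fold change 3.82, SE 0.391, edgeR adjusted p = 4.63e-06). *Ptgs2* (chr1:150100031-150108227, plus strand) was at 318, 224, 410 and 203 CPM in the same order, against 4.92 to 7.62 CPM in capillary cells (log2 fold change 5.34, SE 0.197, edgeR adjusted p = 4.86e-11). It is also an immediate early gene, and 18 of 22 genes of a list of stress and dissociation response were called higher and 1 lower in the same comparison. Their summed level was 16950 to 19790 CPM in venous and 7132 to 7979 CPM in capillary cells, and its part in the result was not tested. Against capillaries, 19 of 22 genes of the list were also higher in arterial, 17 in *Apln*-positive and 18 in fenestrated cells. In these comparisons 25.6, 11.7 and 42.3% of all genes were called in either direction. *Il1r1* (chr1:40225080-40317257, plus strand) was at 288, 234, 316 and 310 venous CPM against 20.9 to 24.8 capillary CPM (log2 fold change 3.56, SE 0.116, edgeR adjusted p = 1.02e-11).

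Arterial and fenestrated endothelium each differed from capillaries in a mixed way. All 6 members tested were called in arterial cells, where 25.6% of all genes were. *Vcam1*, *Ptgs2* (log2 fold change 1.16) and *Icam2* (0.33) were higher, and *Icam1*, *Lcn2* (−3.21) and *Il1r1* (−1.18) lower. *Lcn2*, with 2, 5, 4 and 4 arterial UMIs in WT1, WT2, KO1 and KO2, passed the filter on low counts through its capillary counts. Its call adds nothing to the 6. In fenestrated cells 6 of 7 were called, against 42.3% of all genes. *Lrg1*, *Il1r1* (log2 fold change 1.16), *Icam1* (0.40) and *Icam2* (0.36) were higher there, and *Lcn2* (−2.39) and *Ptgs2* (−1.89) lower. *Lrg1* passed the filter on low counts through its fenestrated counts, and *Lcn2* and *Ptgs2* through their capillary counts. The calls of these genes add nothing to the 6 of 7. The calls of *Icam1* and *Icam2* in fenestrated cells were each lost in 3 of 4 fits without 1 mouse. *Vcam1* did not pass the test (log2 fold change −0.02, SE 0.203, edgeR adjusted p = 0.958).

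The next comparison asked whether *Angpt2* loss changed the genes in venous endothelium. None of the 9 members tested was called, where 0.0877% of 10259 genes were. At an unadjusted p under 0.05 there was 1 member, *Sele* (log2 fold change 2.08, SE 0.634, edgeR adjusted p = 0.292), and DESeq2 called none. *Sele* passed the filter on low counts through its *Angpt2*-KO counts, so its p gives no support. The other 8 differed by −0.45 (*Lcn2*, SE 0.307) to 0.19 (*Il1r1*, SE 0.181) on the log2 scale, and the *Angpt2*-KO and WT values overlapped for *Icam1*, *Icam2*, *Vcam1*, *Ackr1*, *Lrg1*, *Lcn2* and *Ptgs2*. The *Il1r1* values of KO1 and KO2 lay above both WT values. In simulated venous counts of 10030 genes, changes of 2-fold were found in 56.1% and those of 4-fold in 87.9% of cases, and smaller differences may not be detectable. KO1 had only 35 venous cells, and KO2 cells of the cluster named from choroid epithelium markers were not in this comparison. Without KO1, *Lcn2* was called lower (log2 fold change −1.35, edgeR adjusted p = 0.00448), and without KO2 it was at 0.24.

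KO2 had the shallowest venous cells and, for all members but *Sele* and *Selp*, the lowest shares of venous cells with a transcript. *Icam1* was found in 73.6, 77.4, 80 and 46.8% of venous cells of WT1, WT2, KO1 and KO2, where the median cell had 18843, 18026.5, 14894 and 4836 UMIs. After each cell was thinned to 2000 UMIs the shares were 31.2, 30.2, 30.3 and 23.4%. *Vcam1* went from 88.9, 92.3, 94.3 and 74.5% to 65.9, 65.3, 78.8 and 61.3%, and KO2 was the lowest in both. In thinned cells KO2 was also the lowest for *Lcn2*, but not for *Ackr1*, *Lrg1* or *Ptgs2*. It was the highest for *Il1r1*, at 39.1, 35.3, 27.3 and 46% in WT1, WT2, KO1 and KO2. At least 5 of the 10 genes were found together in 71.5, 75, 74.3 and 42.6% of venous cells. KO2 also had the highest summed pericyte markers in venous cells, at 807 CPM against 383, 236 and 54.6 CPM in WT1, WT2 and KO1. The part of depth and of these markers in the venous values of KO2 was not tested. KO2 also had 176 cells in the cluster named from choroid epithelium markers, at a median of 14509 UMIs. *Vcam1* was found in 95.45%, *Il1r1* in 85.8%, *Ptgs2* in 79% and *Ackr1* in 50% of them. Levels were 360, 165, 126 and 50.1 CPM, below those of KO2 venous cells. All members but *Lrg1* and *Lcn2* had more UMIs in that cluster than in the KO2 venous group. Whether some of these cells are venous, and their part in the genotype comparison, were not tested.

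**Figure D2:**
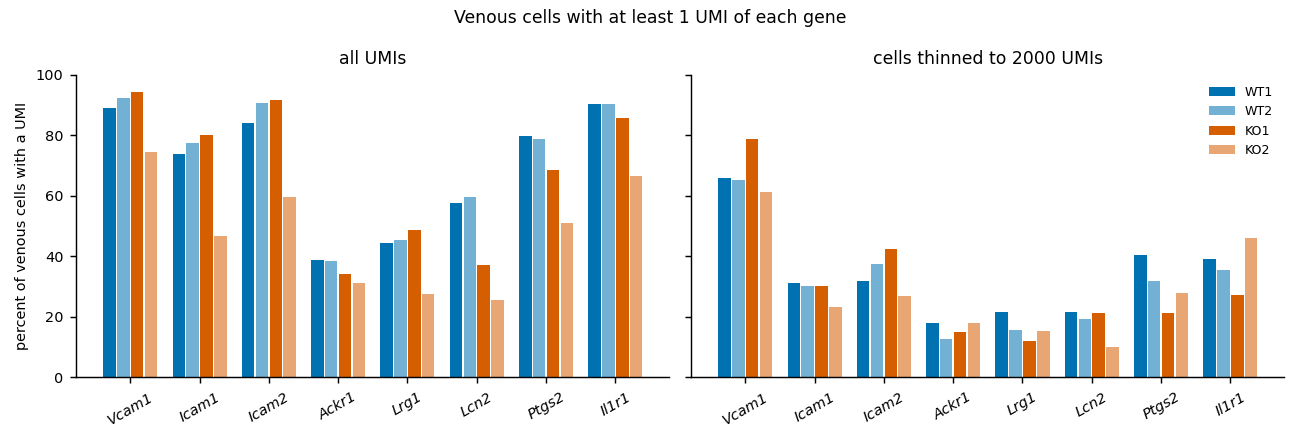
Percent of venous cells with at least 1 UMI of each of 8 genes, 1 bar per mouse, with all UMIs (left) and after each cell was thinned to 2000 UMIs (right). The KO2 bars are low on the left, and for *Icam1* the 4 bars lie between 23.4 and 31.2% on the right.

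In capillary endothelium the same comparison gave 2 calls among 6 members, where 8.61% of 11622 genes were called. *Lcn2* was at 2.51 and 3.05 CPM in WT1 and WT2 and at 22.2 and 13.3 CPM in KO1 and KO2. Both *Angpt2*-KO values lay far above the WT values (log2 fold change 2.62, SE 0.289, edgeR adjusted p = 0.000341). It was found in 0.602 and 0.726% of WT and in 9.91 and 3.69% of *Angpt2*-KO capillary cells, or 0.0752, 0.326, 2.87 and 2.03% at 2000 UMIs per cell. The microglial shares were 0, 1.23, 1.13 and 1.11%, at median depths of 4521, 4018, 6265 and 3490 UMIs. The WT capillary shares lie within the microglial range, and whether they are background was not tested. *Vcam1* was at 36.2 and 22.7 CPM in WT and at 9.61 and 17.7 CPM in *Angpt2*-KO capillaries (log2 fold change −1.13, SE 0.29, edgeR adjusted p = 0.0349). The groups did not overlap, but the call was lost without WT1 (log2 fold change −0.67, edgeR adjusted p = 0.294) and DESeq2 did not make it (adjusted p = 0.447). *Icam1*, *Icam2*, *Ptgs2* and *Il1r1* differed by −0.17 to 0.11 on the log2 scale and were not called.

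**Figure D3:**
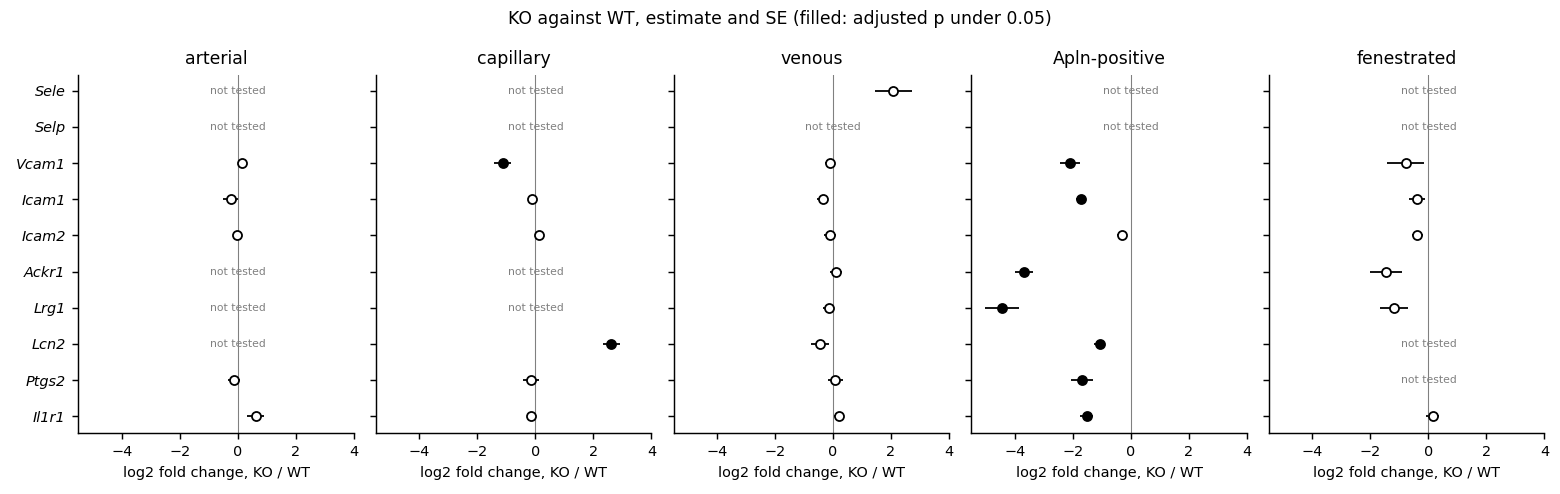
Log2 fold change of *Angpt2*-KO against WT for each gene in 5 endothelial groups, with the SE of the edgeR fit as bars; filled points have an adjusted p under 0.05. The 9 venous genes tested are open, *Lcn2* and *Vcam1* are filled in the capillary group, and 7 genes lie to the left in *Apln*-positive cells.

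The capillary group contained 1 cluster led by *Apln*, *Esm1* and other angiogenic markers, and its cells without an *Apln* UMI made up 2.07 and 1.40% of the capillary cells of WT1 and WT2 but 48.8 and 28% of those of KO1 and KO2. Within this cluster *Lcn2* was at 2.74, 19.2, 29.8 and 23.7 CPM in WT1, WT2, KO1 and KO2, from 1, 6, 187 and 115 UMIs. In the other capillary cells it was at 2.50, 2.24, 2.84 and 3.90 CPM, so that WT and *Angpt2*-KO mice were close there. A comparison of the cluster with the other capillary cells of the same mice, added after the values were seen, called *Lcn2* higher (log2 fold change 2.63, SE 0.253, edgeR adjusted p = 1.24e-12) and *Vcam1* lower (−1.68, SE 0.225, edgeR adjusted p = 4.10e-08), where 18.1% of all genes were called. *Vcam1* was at 8.21, 9.61, 8.76 and 4.96 CPM inside the cluster and at 37.9, 23.4, 11.8 and 29.1 CPM outside. Without the cluster neither gene was called between *Angpt2*-KO and WT capillaries, with *Lcn2* at 0.57 (SE 0.429, edgeR adjusted p = 0.78) and *Vcam1* at −0.46 (SE 0.301, edgeR adjusted p = 0.718) on the log2 scale.

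**Figure D4:**
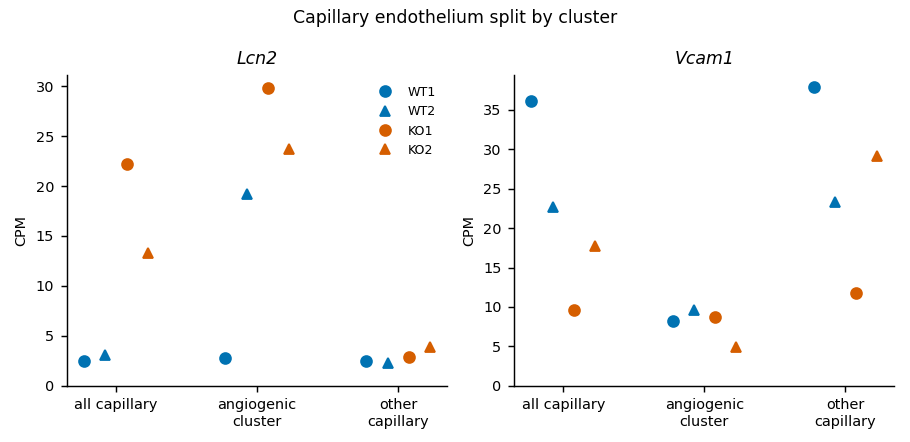
*Lcn2* and *Vcam1* in CPM per mouse in all capillary cells, in the capillary cells of the angiogenic cluster and in the other capillary cells. *Lcn2* of KO1 and KO2 is high in the angiogenic cluster, at 29.8 and 23.7 CPM, and near the WT level in the other capillary cells.

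In *Apln*-positive endothelium, 7 of the 8 members tested were called lower in *Angpt2*-KO mice, where 3.98% of 10101 genes were called lower and 9.71% in either direction. *Icam1* was at 166 and 164 CPM in WT1 and WT2 and at 46 and 55.9 CPM in KO1 and KO2 (log2 fold change −1.72, SE 0.161, edgeR adjusted p = 5.24e-05). *Vcam1* was at 314 and 493 CPM against 53.7 and 141 CPM (−2.10, SE 0.35, edgeR adjusted p = 0.00208), a call that DESeq2 did not make (adjusted p = 0.0679). *Ackr1* was at 42.9 and 38 CPM against 3.101 and 3.106 CPM (−3.67, SE 0.312, edgeR adjusted p = 2.86e-05). In each of these genes the *Angpt2*-KO and WT mice did not overlap. *Lrg1* (−4.44), *Ptgs2* (−1.68), *Il1r1* (−1.52) and *Lcn2* (−1.07) were lower too. *Ackr1* had 23 and 9 UMIs in KO1 and KO2, and *Lrg1* had 4 and 7. Both passed the filter through their WT counts, so their calls add nothing to the 7. *Lcn2* was not called by DESeq2 (adjusted p = 0.0509) and turned to 0.37 without cells holding markers of other types and to 2.08 among cells of capillary clusters, neither of them called. *Icam2* did not pass (−0.32, SE 0.156, edgeR adjusted p = 0.262). The WT sums held 38 and 63 cells and those of *Angpt2*-KO mice 392 and 309, and without WT2 only *Ackr1*, *Icam1* and *Vcam1* were called.

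The zones that supplied the *Apln*-positive cells differed between the genotypes. Of the cells of WT1 and WT2, 10.5 and 33.3% lay in the venous cluster and 50 and 38.1% in the unnamed cluster. In KO1 and KO2 these shares were 2.04 and 4.21%, and 11.5 and 14.6%, while 77 and 62.5% of the cells lay in the angiogenic cluster, against 26.3 and 14.3% in WT1 and WT2. Among *Apln*-positive cells of capillary clusters alone, edgeR called 0 of the 5 members tested and 90 of 8670 genes, and *Ackr1*, *Lrg1* and *Ptgs2* had too few counts for a test. Without the angiogenic cluster, *Ackr1*, *Lrg1* and *Lcn2* were called lower, where 51 of 8717 genes were called. The capillary clusters held 14 and 15 *Apln*-positive WT cells, and *Icam1* was at 14.1, 88.6, 25.9 and 23.1 CPM in WT1, WT2, KO1 and KO2. Within the unnamed cluster *Icam1* of *Apln*-positive cells was at 180, 65.7, 103 and 147 CPM, with WT and *Angpt2*-KO values overlapping. In the venous cluster it was at 333 and 255 CPM in WT1 and WT2 and at 167 and 146 CPM in KO1 and KO2, without overlap. *Ackr1* was at 222, 73.3, 51.8 and 33.3 CPM and *Lrg1* at 83.3, 60, 4.5 and 29.1 CPM there, in the same order. For both of these genes the *Angpt2*-KO values also lay below the WT values, from 4, 21, 8 and 13 cells and with no test. *Lrg1* rests on 9, 36, 2 and 7 UMIs. *Vcam1* and *Lcn2* had no overlap there either. *Ptgs2*, at 305.3, 176.5, 121.6 and 387.1 CPM, overlapped between the genotypes, and so did *Il1r1* and *Icam2*. How many of all genes lacked overlap was not counted. The summed stress list was at 13940 and 15020 CPM in WT and at 10410 and 10680 CPM in *Angpt2*-KO *Apln*-positive cells, and its part was not tested.

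**Figure D5:**
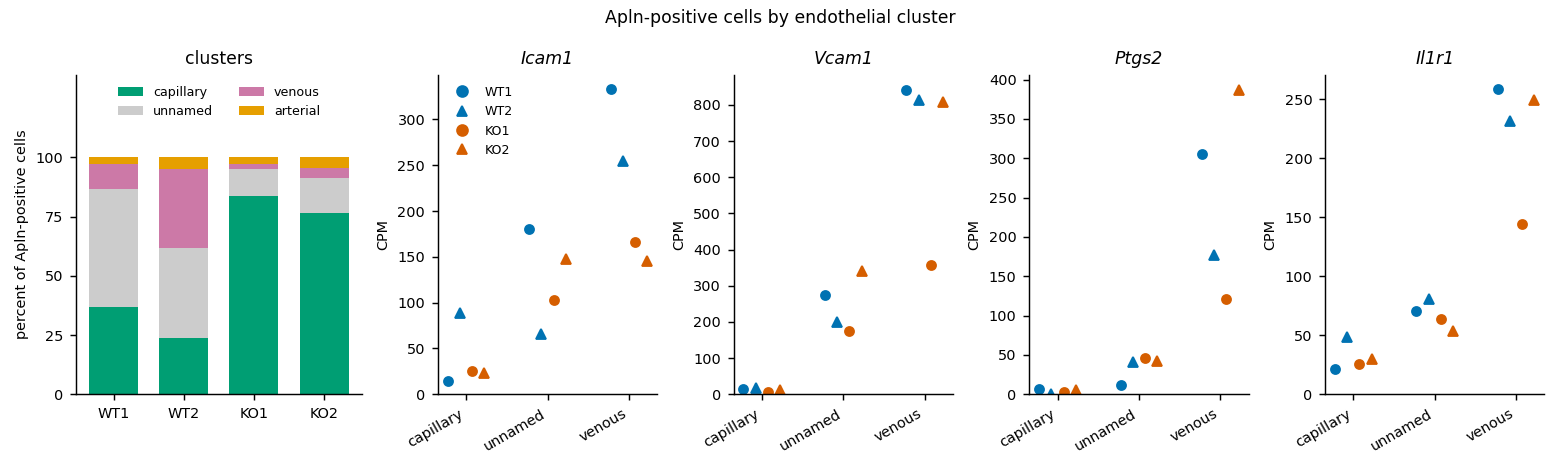
Left, percent of *Apln*-positive cells of each mouse by the cluster they came from. Right, CPM of *Icam1*, *Vcam1*, *Ptgs2* and *Il1r1* in *Apln*-positive cells of capillary, unnamed and venous clusters, 1 point per mouse; the venous points are the highest of a mouse for *Vcam1*, *Ptgs2* and *Il1r1*, and rest on 4, 21, 8 and 13 cells in WT1, WT2, KO1 and KO2.

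*Apln*-positive cells were also set against capillary cells of the same mice, and 6 of 7 members were higher, where 4.43% of 10296 genes were called higher and 11.7% in either direction. *Vcam1* rose by 3.25 on the log2 scale (SE 0.238, edgeR adjusted p = 6.07e-05). *Ackr1*, with 4, 4, 2 and 3 capillary UMIs, passed the filter through the *Apln*-positive counts, so its call adds nothing to the 6. *Apln*-positive cells of capillary clusters alone gave −0.64 for *Vcam1* (edgeR adjusted p = 0.0264), −0.77 for *Ptgs2* and −0.27 for *Icam1*, so these 3 turned direction with the cells included.

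In arterial and fenestrated endothelium no member was called between *Angpt2*-KO and WT mice. Of the 5 tested in arterial cells, where 0.723% of genes were called, 1 had an unadjusted p under 0.05, *Il1r1* at 9.22, 8.26, 8.70 and 17.9 CPM in WT1, WT2, KO1 and KO2 (log2 fold change 0.62, SE 0.288, edgeR adjusted p = 0.529). KO2 alone was high. Of the 6 tested in fenestrated cells, where edgeR called 0% of 9713 genes, 401 genes and 2 members had an unadjusted p under 0.05. *Ackr1* was at 7.31, 8.43, 2.20 and 3.86 CPM (log2 fold change −1.46, SE 0.551, edgeR adjusted p = 0.951) and *Lrg1* at 7.31, 16.1, 4.95 and 6.43 CPM (−1.19, SE 0.479, edgeR adjusted p = 0.951). *Ackr1* passed the filter on low counts through its WT counts. DESeq2 called 0 members in either group.

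Whether the *Angpt2* effect differed between zones was tested as an interaction, in which each group was set against the same capillary sums. The effect on *Vcam1* was higher in arterial than in capillary endothelium by 1.28 on the log2 scale (SE 0.2, edgeR adjusted p = 0.0002), 1 of 6 members where 1.86% of genes were called. The effect on *Lcn2* in venous endothelium minus that in capillary endothelium was −3.102 (SE 0.292, edgeR adjusted p = 2.34e-07), 1 of 10 members where 0.24% were called. In *Apln*-positive cells 4 of 8 members had a lower effect than in capillaries, where 1.02% were called: *Lcn2*, *Icam1*, *Ptgs2* and *Il1r1*. Without the angiogenic cluster none of these 6 differences was called, and neither was any other gene: 0 of 10528, 0 of 10337 and 0 of 9424 genes tested in arterial, venous and *Apln*-positive endothelium. In fenestrated cells edgeR called none of 8 members and 0% of genes, with 2 members, *Lcn2* and *Icam2*, at an unadjusted p under 0.05.

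Other genes of the same pathways were counted from lists. In venous against capillary endothelium, 11.6% of all 10281 genes were called higher and 25.3% in either direction. Of the stress and dissociation list 18 of 22 genes were higher. Of the genes of NF-kappaB signalling and its cytokines 13 of 19 were higher and none lower (median log2 fold change 0.92, against −0.01 for all genes). So were 9 of 10 genes of the STAT3 and acute-phase list (median 1.23) and 6 of 13 receptors and adaptors of IL-1, TNF and Toll-like signalling. *Ch25h*, the cholesterol 25-hydroxylase induced by interferon, was at 215, 154, 194 and 229 venous CPM in WT1, WT2, KO1 and KO2 (log2 fold change 6.14, SE 0.161, edgeR adjusted p = 1.003e-12). *Cd14*, the co-receptor for bacterial lipopolysaccharide, was at 32, 33.5, 57.6 and 26 CPM there (4.81, SE 0.301, edgeR adjusted p = 2.01e-08). Of 9 prostaglandin genes 4 were higher, among them *Ptgs1*, the constitutive synthase (4.69, SE 0.286). *Cd14* and *Ptgs1*, at 0.572 to 1.95 and 0.314 to 1.66 capillary CPM, passed the filter on low counts through their venous counts. Their calls add nothing to the 6 of 13 and the 4 of 9. Of 13 other adhesion genes 1, *Vwf*, was higher (3.71, SE 0.11) and 5 were lower. In venous endothelium edgeR called none of the genes of these lists between *Angpt2*-KO and WT mice, where 0.0877% of 10259 genes were called.

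In capillary endothelium a few list genes changed with *Angpt2* loss. *Cebpd*, a transcription factor of the acute-phase response, was at 101 and 102 CPM in WT1 and WT2 and at 385 and 346 CPM in KO1 and KO2 (log2 fold change 1.81, SE 0.0951, edgeR adjusted p = 3.01e-06). *Tlr4*, the receptor for lipopolysaccharide, rose by 1.83 (SE 0.285) and *Cx3cl1*, a membrane-bound chemokine, by 0.99 (SE 0.101). *Slco2a1*, the prostaglandin transporter, fell by 1.74 on the log2 scale (SE 0.36) and *Il6ra*, the IL-6 receptor, by 0.71 (SE 0.105). Of 18 NF-kappaB and cytokine genes 2 were higher, and of 10 STAT3 and acute-phase genes 1 was higher and 2 lower. Of all 11622 genes tested 615 were higher and 386 lower, 8.61% in either direction. Between the angiogenic cluster and the other capillary cells *Cebpd* (0.96), *Tlr4* (0.91), *Slco2a1* (−2.69) and *Il6ra* (−0.71) differed in the same directions, and the part of that cluster's share in these changes was not tested. In *Apln*-positive cells 7 of 10 STAT3 and acute-phase genes were lower in *Angpt2*-KO mice, where 3.98% of all genes and 9 of 22 genes of the stress and dissociation list were lower, among them *Ch25h* at 58.3 and 73.5 CPM in WT against 15.2 and 19 CPM in KO.

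The genes whose levels were most like those of a member were sought over the 20 sums of 5 groups and 4 mice, among 7562 genes not used for clustering. The sums share libraries, so the Pearson r of log2(CPM + 1) is a description. *Ackr1* was closest to *Lrg1* (r = 0.971), *Icam1* (0.968) and *Il1r1* (0.958). *Ptgs2* was closest to *Vwf* (0.974) and to *Pla2g4a* (0.962), which encodes the phospholipase that frees arachidonic acid. *Vcam1* was closest to *Tnfaip8* (0.941), *Lcn2* to *Tshz2* (0.917), one of the venous markers used for naming, and *Icam2* to *Slc50a1* (0.895). *Icam1* and *Icam2* had r = −0.084.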

How the data were processed

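Single-cell libraries of 2 *Angpt2*-WT and 2 *Angpt2*-KO mice were grouped by their labels. The authors deposited whole-number UMI counts per gene and cell, made with Cell Ranger (6.1.2 in the submitters' processing notes, 6.1.1 in the matrix headers). Cells passed with over 500 genes and a mitochondrial share of UMIs under 10%. Doublets were not removed. Cells were clustered with Seurat 5.3.0 in R 4.3.3 (2000 variable genes, 50 components, resolutions of 0.2 and 0.4) without the listed genes. A cluster was named when at least 3 markers were found in 25% of its cells and its 10 leading genes did not go against the name, so rebuilt names may differ from those of the study.

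UMIs were summed per mouse and cell group, and tested with edgeR 4.0.16 (filterByExpr, TMM, quasi-likelihood test, Benjamini-Hochberg adjustment over all genes tested, threshold 0.05). A fold change of KO against WT is positive when the level was higher in *Angpt2*-KO mice. Comparisons between groups of the same mice, and interactions, carried the mouse as a term and left out the genes used for clustering. For shares, cells were thinned to 2000 UMIs. Intervals were exact at 95%. DESeq2 1.42.0, other filters, gates, clusterings and left-out mice were alternatives. The test was also run on simulated counts.

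All 10 members were named in each comparison, with up to 8 called genes of the other pathway lists by size of change. For members with a mean of at least 10 CPM, the 3 genes with the highest Pearson correlation were searched. The text names some of these. The members and lists were chosen with earlier results of these data known. Depth was 31753395 to 42903731 UMIs per library. Positions follow GENCODE M21 on GRCm38.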

Additional observations from a re-analysis of the deposited data

Results flagged for a closer look

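The effect of *Angpt2* loss differed between zones for 6 gene and zone pairs, by the interaction test of edgeR. The effect on *Vcam1* was higher in arterial than in capillary endothelium by 1.28 on the log2 scale (edgeR adjusted p = 0.0002). The effect on *Lcn2* was −3.102 in venous endothelium relative to capillary endothelium (edgeR adjusted p = 2.34e-07). In *Apln*-positive cells, relative to capillary endothelium, it was −3.69 for *Lcn2* (edgeR adjusted p = 3.26e-07), −1.54 for *Icam1* (1.49e-06), −1.33 for *Il1r1* (0.00096) and −1.41 for *Ptgs2* (edgeR adjusted p = 0.0171). All 6 use the same capillary sums.

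Outside the endothelium, *Lcn2* was seen in pericytes, at 4.59 and 2.97 CPM in WT1 and WT2 and at 14.2 and 13 CPM in KO1 and KO2, a mean of 13.6 CPM in *Angpt2*-KO mice. The UMIs behind these values were 3, 3, 54 and 22. The share of pericytes with *Lcn2* at 2000 UMIs per cell was 0, 0.806, 3.01 and 3.07%. Endothelial *Icam2* was found in the same pericytes at 87.1, 127, 132 and 137 CPM, in 25, 25.5, 48.9 and 42.1% of them, or 8.70, 10.5, 16.9 and 25.8% at 2000 UMIs per cell. It was higher in *Angpt2*-KO mice too. The difference in *Lcn2* and the part of endothelial RNA in it were not tested.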

How the results depend on the processing

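Of the counts of members called, 157 stayed within 1.5 times under the alternatives and 31 moved. Of the values of single members, 592 kept their direction and side of the threshold, 64 were no longer called, 1 became called and 27 turned direction. Except where cells were left out by design, the cause was not tested.

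Without the angiogenic cluster the number called fell to 0 in capillary endothelium and in the interactions of arterial, venous and *Apln*-positive endothelium, and to 3 in *Apln*-positive cells between genotypes. Restricted to capillary clusters, *Apln*-positive cells gave 0 of 5 members tested between genotypes, 2 against capillaries and 0 in the interaction. The fits between genotypes and of the interaction were added to this alternative after seeing the data. There *Lcn2* was at 2.08 between genotypes, *Ptgs2* at −0.77, *Vcam1* at −0.64 and *Icam1* at −0.27 against capillaries, and *Ptgs2* at 0.22 in the interaction. Thinned cells gave 1 in capillary endothelium, 2 in *Apln*-positive cells, 2 in their interaction, 3 in fenestrated against capillary endothelium and 1 in the angiogenic comparison. A gate of 2 *Apln* UMIs gave 4 between genotypes and 3 against capillaries. Without cells holding markers of other types *Apln*-positive cells gave 4, with *Lcn2* at 0.37. In capillary endothelium 1 was called, *Lcn2*, by DESeq2, with *Apln*-positive cells kept, and without cells holding other markers. The venous interaction gave 2 with no filter, with the gate of 2 UMIs, with *Apln*-positive cells kept and without cells holding other markers. The arterial interaction gave 2 at resolution 0.8.

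In venous endothelium between genotypes, where no member was called, directions turned for several genes. *Il1r1* was at −0.017 with *Apln*-positive cells kept, −0.36 at resolution 0.8, −0.079 without cells holding other markers and −0.36 with the unnamed cluster counted as venous (added after seeing the data). With *Apln*-positive cells kept, at resolution 0.8 and with the unnamed cluster as venous, *Ptgs2* was at −0.13, −0.21 and −0.35, and at −0.60 in thinned cells. In these 3 settings *Ackr1* was at −0.18, −0.091 and −0.37. *Icam2* was at 0.026 at resolution 0.8 and 0.046 with the unnamed cluster, and *Vcam1* at 0.062 without cells holding other markers.

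When each mouse was left out in turn, members called ran from 0 to 1 in arterial (*Il1r1* without KO1), 1 to 2 in capillary, 0 to 1 in venous (*Lcn2* without KO1) and 3 to 7 in *Apln*-positive endothelium between genotypes. Against capillaries they ran from 5 to 6 in arterial, 7 to 8 in venous, 5 to 7 in *Apln*-positive and 4 to 6 in fenestrated endothelium. They ran from 1 to 2 in the venous and 2 to 6 in the *Apln*-positive interaction, and from 2 to 3 in the angiogenic comparison. Venous values between genotypes ran from −0.49 to 0.54 for *Ptgs2*, −0.18 to 0.42 for *Ackr1*, −1.35 to 0.24 for *Lcn2*, −0.24 to 0.026 for *Vcam1* and −0.33 to 0.15 for *Icam2*.

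The replicate block left the members called at 0 in arterial, 2 in capillary, 0 in venous, 7 in *Apln*-positive and 0 in fenestrated endothelium, with 203, 1142, 65, 983 and 6 genes called in all. The labels do not say whether a number marks a shared experiment, although the study describes independent experiments. Mice with the same number had the same sex, and their deviations correlated at −0.055, −0.064, −0.14, −0.012 and −0.29 in that order. A crossed block, added after seeing the data, called 67 venous and 91 fenestrated genes and 0 members.

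Over all alternatives the genes called between genotypes ranged from 4 to 229 in arterial, 128 to 1534 in capillary, 2 to 622 in venous, 51 to 1374 in *Apln*-positive and 0 to 91 in fenestrated endothelium. They ranged from 1507 to 4138, 884 to 3520, 326 to 1968 and 2091 to 4777 in arterial, venous, *Apln*-positive and fenestrated endothelium against capillaries, and from 631 to 2207 in the angiogenic comparison. In the interactions they ranged from 0 to 271, 0 to 486, 0 to 307 and 0 to 52. DESeq2 gave no adjusted p to called members of the arterial and *Apln*-positive interactions and of the angiogenic comparison, so those counts have no DESeq2 value, and keeping *Apln*-positive cells in the zones leaves no separate *Apln*-positive group. Few cells limit the venous group of KO1 and the *Apln*-positive groups of WT mice.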

Other observations

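*Icam1* was not confined to endothelium. In microglia, the resident macrophages of the brain, it was at 209, 148, 238 and 234 CPM in WT1, WT2, KO1 and KO2, and 42.8, 40.7, 60.8 and 44.4% of these cells had a transcript.

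Fenestrated endothelium, the permeable kind found in the choroid plexus, differed from capillary endothelium in 12 of 19 genes of NF-kappaB signalling and its cytokines, 7 higher and 5 lower, where 42.3% of all genes were called. *Tnfaip2*, a gene induced by TNF, was higher by 8.91 on the log2 scale (3.81 in arterial endothelium) and *Steap4*, a metalloreductase, by 8.74. *Ptgs1*, the constitutive prostaglandin synthase, was at 213, 244, 238 and 212 CPM there, against 0.314 to 1.66 CPM in capillary cells. *Tnfaip2*, *Steap4* and *Ptgs1* passed the filter on low counts through their fenestrated counts, and *Tnfaip2* in the arterial comparison through its arterial counts. The call of *Tnfaip2* adds nothing to the 12 of 19. *Ptgs1* was higher in venous and arterial endothelium too, and *Ptgs2* was lower in fenestrated cells.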
